A study of Mus musculus with 12 samples.

Results

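The genes described here are 42 genes of ribosome biogenesis and RNA polymerase I, taken by symbol from a list, and all 42 were present among the 13554 genes of the deposited expression table and passed the filter on low values that left 12570 genes for testing. RNA-seq was done on liver from male mice (C57Bl/6J, WT) 3 days after a surgeon had removed part of the organ (partial hepatectomy), and 12 libraries fell into 4 groups of 3. The groups were resection of 80% in an arm labelled HC (PH80_HC), the same resection with the granulocyte growth factor G-CSF and with HNF4a, which controls hepatocyte genes (PH80_G+H), resection of 80% with no added label (PH80) and resection of 70% (PH70). All 4 groups had been operated on and share the time point, so no unresected liver and no other day enters any value. The sources used here do not explain HC, and they give neither the age of the mice nor how G-CSF and HNF4a were given. No label states that replicates are separate mice, so a p-value here reflects only how far these libraries scatter, and part of that scatter may be technical.

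Ribosomes are assembled in the nucleolus, where RNA polymerase I transcribes the ribosomal DNA into a long precursor RNA. Small nucleolar ribonucleoproteins (snoRNPs) of the box C/D and H/ACA classes direct methylation and pseudouridylation of that precursor, and large sets of assembly factors cut, fold and package it into the small (40S) and large (60S) subunits. Growing and dividing cells need many ribosomes, and in the regenerating liver many genes of this machinery, several of them known targets of the transcription factor MYC, are switched on soon after resection. Bulk RNA values cannot tell a change in the amount of RNA per cell from a change in the number of cells of a type.

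By role, 5 members belong to RNA polymerase I and ribosomal DNA transcription (Polr1a, Polr1b, Polr1c, Polr1e and Ubtf) and 6 are abundant nucleolar proteins and regulators (Ncl, Npm1, Nolc1, Ddx21, Gnl3 and Mybbp1a). The snoRNP proteins number 7, with Fbl, Nop56, Nop58 and Rrp9 for box C/D and Dkc1, Nhp2 and Gar1 for H/ACA. The small subunit processome and 40S maturation are represented by 11 members (Nop14, Noc4l, Utp4, Utp15, Utp20, Heatr1, Wdr43, Wdr75, Rrp12, Bysl and Ltv1). Large subunit maturation is represented by 13 (Rrs1, Nop2, Nop16, Bop1, Pes1, Wdr12, Wdr74, Rrp1b, Noc2l, Noc3l, Ftsj3, Ebna1bp2 and Nip7).

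Among the 42 genes, 1 passed the test in 1 of the 6 comparisons between groups. Gar1, a core protein of the H/ACA snoRNP, was higher after the 80% than after the 70% resection, and no member passed in the other 5 comparisons by limma. In those 5 comparisons limma called between 0.00796% and 0.891% of all genes. Between PH80 and PH70 it called 3.82% of all genes, 1.09% higher and 2.73% lower. On the deposited scale 28 of 42 members had their lowest group mean in PH70 livers, against 27.9% of all genes tested, but this order depends on the scaling. With TMM factors it was again 28, while with every library scaled to the same total 13 members were lowest in PH70 and 25 in PH80_HC, where 52.7% of all genes were then lowest. The libraries held between 9.72 and 44.5 M recovered reads, and the smallest count behind any member was 45 reads, for Polr1e in PH70 replicate 3.

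The promoters of the H/ACA proteins and of Nip7 are shown because these genes had the largest differences between PH80 and PH70 or, for Dkc1, because the protein works in the same particle and was not higher there. RefSeq on GRCm38.p6 gave a promoter window, from 250 bases before to 50 bases after the start of transcription, for 37 of the 42 members. Capitals mark CCGGAAGT, a core read by ETS-family factors, or its reverse complement. The windows are Gar1 at chr3:129831347-129831646 on the minus strand, Nhp2 at chr11:51619523-51619822 on the plus strand, Dkc1 at chrX:75095604-75095903 on the plus strand and Nip7 at chr8:107056627-107056926 on the plus strand, each written 5′ to 3′ in the direction of the gene.
Gar1: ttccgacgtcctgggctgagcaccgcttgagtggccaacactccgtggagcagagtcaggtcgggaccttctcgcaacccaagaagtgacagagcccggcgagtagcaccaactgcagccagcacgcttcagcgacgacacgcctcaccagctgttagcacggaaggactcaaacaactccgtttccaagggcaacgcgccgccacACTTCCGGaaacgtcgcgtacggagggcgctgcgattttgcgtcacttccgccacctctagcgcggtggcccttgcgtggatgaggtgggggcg
Nhp2: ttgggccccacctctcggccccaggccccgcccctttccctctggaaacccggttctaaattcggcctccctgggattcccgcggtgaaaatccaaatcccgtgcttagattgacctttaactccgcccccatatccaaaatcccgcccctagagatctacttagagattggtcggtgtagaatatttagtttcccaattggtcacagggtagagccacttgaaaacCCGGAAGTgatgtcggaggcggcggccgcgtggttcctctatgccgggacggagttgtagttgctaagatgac
Dkc1: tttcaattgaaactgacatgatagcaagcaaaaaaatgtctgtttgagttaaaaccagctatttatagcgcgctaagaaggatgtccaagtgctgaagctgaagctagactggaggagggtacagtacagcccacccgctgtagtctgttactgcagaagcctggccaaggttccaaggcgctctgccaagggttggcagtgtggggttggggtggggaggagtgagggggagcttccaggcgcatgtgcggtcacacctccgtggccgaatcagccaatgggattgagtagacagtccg
Nip7: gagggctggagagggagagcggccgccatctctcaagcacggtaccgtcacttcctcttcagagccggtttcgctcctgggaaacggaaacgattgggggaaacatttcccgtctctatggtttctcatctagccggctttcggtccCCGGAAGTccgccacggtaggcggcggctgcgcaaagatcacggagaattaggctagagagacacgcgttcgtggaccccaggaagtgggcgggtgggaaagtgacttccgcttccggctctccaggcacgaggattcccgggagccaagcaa
The core begins 44 bases before the start in Gar1, 23 before it in Nhp2 and 103 before it in Nip7, and these letters are not in the Dkc1 window. On either strand CCGGAAGT was found in 11 of the 37 member promoters (29.7%), against 8.81% of the 10099 tested genes with a window. Besides Gar1, Nhp2 and Nip7 they were Polr1e, Wdr74, Heatr1, Ebna1bp2, Noc2l, Polr1c, Ltv1 and Utp4. The log2 differences of PH80 from PH70 of these further genes were, in that order, 0.65, 0.47, 0.40, 0.23, 0.08, 0.03, -0.05 and -0.14. Whether the core goes with the difference was not tested. The E-box CACGTG, the letters bound by MYC with MAX, was found in 7 of 37 (18.9%), against 11.5% of tested genes, and the 7 were Ltv1, Mybbp1a, Nop2, Pes1, Utp20, Utp4 and Wdr43. Neither motif holds the other, and the 2 were kept from 8 that were searched, after their counts had been seen, so these shares are a description of the promoters and not a test.

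Over the 12 libraries the highest exceeded the lowest by a median of 1.75-fold across the members, against 2.27-fold across all genes tested, and 7 of the 42 members were above that all-gene median. The median was 2.0-fold across the 8120 tested genes in the same range of levels. Wdr75, a subunit of the small subunit processome, had the narrowest range at 1.26-fold, and Nhp2 the widest at 2.98-fold. The mean log2 deviation of the 42 members from their own averages was 0.07, -0.13 and 0.13 in PH80_HC replicates 1 to 3. It was 0.03, 0.18 and -0.07 in PH80_G+H, 0.02, 0.17 and 0.07 in PH80 and -0.11, -0.15 and -0.21 in PH70. The 3 PH70 libraries lay below all PH80 libraries, while each treated arm held 1 library below 0. PH80_G+H replicate 2 was the highest library for 15 of the 42 members.

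**Figure D1:**
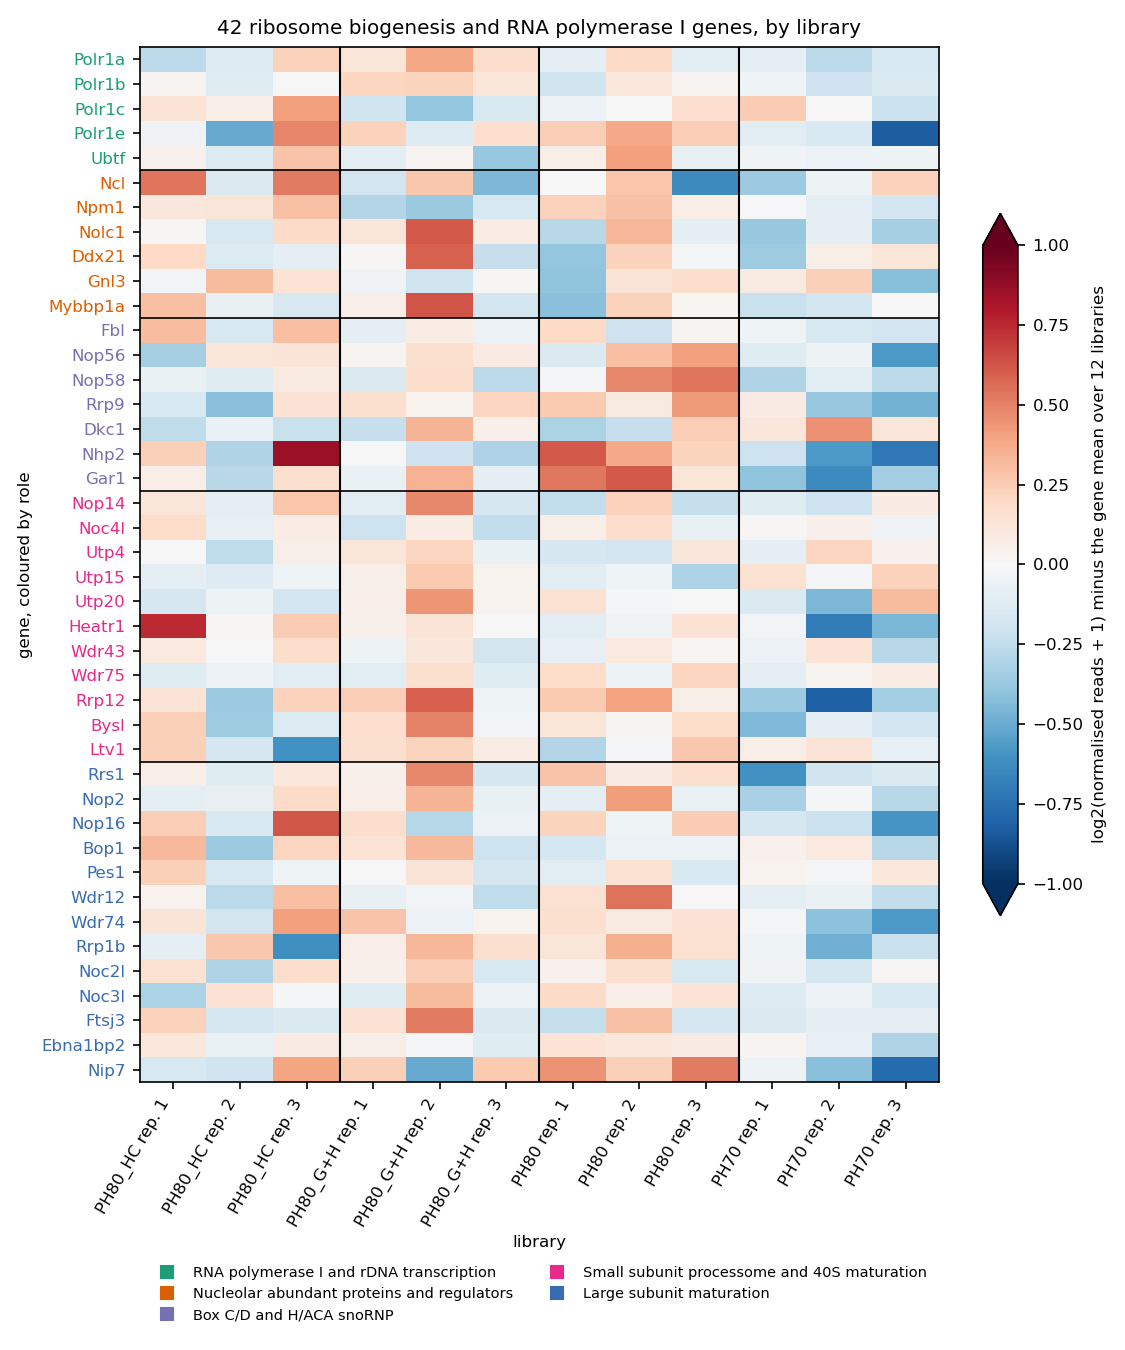
Heat map of the 42 members by library, coloured by log2(normalised reads + 1) minus the gene's mean over 12 libraries (colour bar, from -1 to 1) and ordered by role. On the deposited scale the PH70 columns at the right are blue for most rows, the columns of a treated arm differ among themselves, and the darkest cells fall on single libraries such as Nhp2 in PH80_HC replicate 3.

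The comparison of PH80 with PH70 asks what the larger resection did to this machinery. Gar1, which binds the catalytic protein of the H/ACA particle, rose to 346.8 ± 60.6 normalised reads in PH80 livers, against 186.3 ± 19.2 in PH70 livers (SD, n = 3 each), a 1.84-fold difference. It was the 1 of 42 members called, where 1.09% of all genes were called higher and 2.73% lower (limma on log2 values, Benjamini-Hochberg adjusted p under 0.05). By unadjusted p under 0.05, 10 of 42 members were higher and 0 lower, against 10.2% of all genes higher and 11.2% lower. The log2 difference was positive in 33 of 42 members, against 51.4% of all genes, and its median was 0.18, against 0.01 over all genes. With every library scaled to the same total it was positive in 39 members (62% of all genes) with a median of 0.30, against 0.13 over all genes. All 3 PH80 libraries lay above all 3 PH70 libraries for 16 members (12.8% of all genes) and below them for 1 member, Utp15 (14.2% of all genes).

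Of the 5 roles, the snoRNP proteins had the largest median log2 difference, 0.51 over 7 members. Gar1 (chromosome 3, 129824912 to 129831396, GENCODE M21 on GRCm38) had 268.1, 211.6 and 286.7 normalised reads in the PH80_HC libraries and 244.7, 326.5 and 239.3 in the PH80_G+H libraries. It had 369.9, 392.5 and 278.1 in the PH80 libraries and 193.7, 164.5 and 200.7 in the PH70 libraries. Every library of the 3 groups with the larger resection was above every PH70 library, and PH80 replicates 1 and 2 were the highest of all 12. The log2 difference of PH80 from PH70 was 0.88 (SE 0.205, adjusted p = 0.0328 by limma). The call was lost when any PH70 library was left out (adjusted p = 0.0730, 0.152 and 0.0606 for replicates 1 to 3) or PH80 replicate 1 or 2 (0.113 and 0.116), with log2 differences between 0.79 and 0.94. Over 26 alternative settings the log2 difference lay between 0.61 and 1.03, and 17 of the 26 kept the call.

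Nhp2, the H/ACA protein that contacts the guide RNA (chromosome 11, 51619735 to 51623714), had the largest log2 difference of all members, 0.91 (SE 0.252), but an adjusted p of 0.0640 by limma. It had 1418, 976.4 and 2175 normalised reads in the PH80_HC libraries and 1201, 1041 and 971.6 in the PH80_G+H libraries. It had 1835, 1563 and 1399 in the PH80 libraries and 1038, 804.3 and 729.2 in the PH70 libraries. PH80 and PH70 did not overlap, while PH80_HC spanned from inside the PH70 range to the highest value of the 12. Nhp2 passed when PH80_HC replicate 2 or 3 was left out (adjusted p = 0.0337 and 0.0194 by limma), which changes the estimate of spread and not the difference. It also passed with DESeq2 (adjusted p = 0.0208). With a trend on transcript length and GC content removed, its difference was 0.56 (adjusted p = 0.0621 by limma). The gene Rmnd5b lies opposite Nhp2, and the sources used here do not say whether reads were counted by strand.

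Dkc1, the pseudouridine synthase of the same particle, did not go with its partners. It averaged 247.8 ± 54.6 normalised reads in PH80 livers and 309.6 ± 43.8 in PH70 livers (SD, n = 3 each), and the groups overlapped (log2 difference -0.33, 95% interval -0.78 to 0.12). Of the box C/D proteins, Nop58 averaged 1015 ± 202 in PH80 and 681.7 ± 48.7 in PH70 (log2 difference 0.56, adjusted p = 0.116 by limma). Rrp9, the U3 snoRNP protein, averaged 323.9 ± 37.7 in PH80 and 228.7 ± 49.7 in PH70 (log2 difference 0.51, adjusted p = 0.172 by limma). Both sets of libraries were separate between the groups without passing the adjustment. Nop56, the partner of Nop58, had a log2 difference of 0.44 with overlapping groups, and Fbl, the methyltransferase fibrillarin, one of 0.14.

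Large subunit factors were next, with a median log2 difference of 0.29 over 13 members, 11 of them positive and 0 called. Nip7, a factor of late 60S precursor processing (chromosome 8, 107056877 to 107060931), had 406.5, 394.8 and 595.4 normalised reads in the PH80_HC libraries and 535.3, 319.1 and 544.6 in the PH80_G+H libraries. It had 620.2, 533.8 and 649.97 in the PH80 libraries and 436.96, 338.2 and 265.4 in the PH70 libraries. All PH80 libraries were above all PH70 libraries, while PH80_HC replicates 1 and 2 and PH80_G+H replicate 2 fell inside the PH70 range. Its log2 difference of PH80 from PH70 was 0.82 (SE 0.252, adjusted p = 0.0904 by limma). Rrs1, Wdr74 and Nop16 had differences of 0.50, 0.47 and 0.47, also with no overlap. The PeBoW complex, which acts in 60S maturation, was split: Wdr12 had a difference of 0.37, Bop1 of -0.05 and Pes1 of -0.08, and none passed.

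Among small subunit factors the median log2 difference was 0.08 over 11 members. Rrp12, a factor of 40S precursor maturation and export known from yeast (chromosome 19, 41862851 to 41896173), had 206.5, 145.8 and 220.5 normalised reads in the PH80_HC libraries and 222.6, 284.9 and 182.2 in the PH80_G+H libraries. It had 225.02, 248.97 and 195.8 in the PH80 libraries and 145.9, 106.02 and 147.2 in the PH70 libraries. Except for PH80_HC replicate 2, which lay in the PH70 range, every library with the larger resection was above every PH70 library. The log2 difference of PH80 from PH70 was 0.75 (SE 0.232, adjusted p = 0.0917 by limma). Bysl, a late 40S factor, had a difference of 0.35 with no overlap, and Utp15, a processome subunit that promotes ribosomal DNA transcription, one of -0.28.

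Heatr1, a processome subunit tied to RNA polymerase I transcription (chromosome 13, 12395027 to 12440289, with a gene on the opposite strand), had 858.4, 516.9 and 609.7 normalised reads in the PH80_HC libraries and 531.7, 560.99 and 509.9 in the PH80_G+H libraries. It had 473.95, 500.2 and 566.6 in the PH80 libraries and 501.7, 314.4 and 372.4 in the PH70 libraries. PH80_HC replicate 1 was far above the rest, and PH70 replicates 2 and 3 were the lowest. Its log2 difference of PH80 from PH70 was 0.40, with an interval from -0.06 to 0.86.

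The polymerase I members and the abundant nucleolar proteins gave no call. The 5 polymerase I members had a median log2 difference of 0.17, all positive. Polr1e, a subunit found in polymerase I and not in the other nuclear polymerases, averaged 219.1 ± 11.6 normalised reads in PH80 and 142.3 ± 36.5 in PH70 (log2 difference 0.65, adjusted p = 0.176 by limma). The catalytic subunits Polr1a and Polr1b had differences of 0.17 and 0.11, and Ubtf, which binds ribosomal DNA and opens it for transcription, one of 0.18. For these 3 the 95% interval lay within 2-fold in both directions, as it did for 37 of the 42 members in this comparison. The 6 nucleolar proteins had a median of 0.04. Npm1 was at 0.29 with all PH80 libraries above all PH70 libraries, and Nolc1 at 0.26 with overlap. Mybbp1a was at 0.08, nucleolin (Ncl) at -0.06, the nucleostemin gene Gnl3 at 0.00 and the helicase Ddx21 at 0.00.

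**Figure D2:**
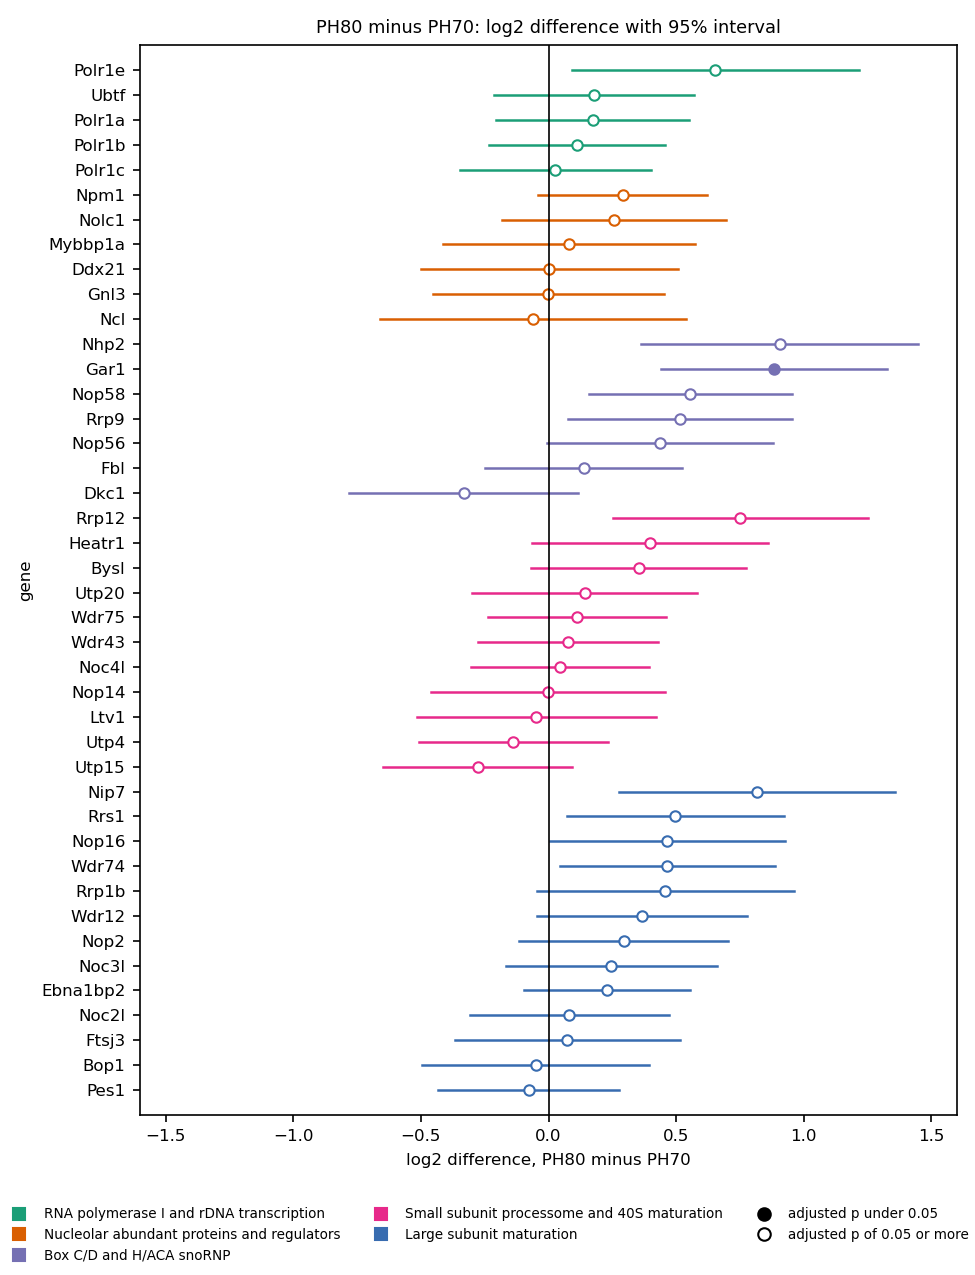
Log2 difference of PH80 minus PH70 for each member (points), with the 95% interval from the fit over 12 libraries (lines), ordered by role and by size within a role. The filled point is Gar1 at 0.88, the single member past the threshold, and Nhp2, Nip7 and Rrp12 lie close to it with intervals that do not reach 0.

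Npm1, nucleophosmin, a histone and ribosome chaperone (chromosome 11, 33152287 to 33163206), had the smallest p of all members between PH80_G+H and each of the other PH80 groups. It had 2766, 2781 and 3131 normalised reads in the PH80_HC libraries and 2092, 1982 and 2287 in the PH80_G+H libraries. It had 2997, 3145 and 2674 in the PH80 libraries and 2563, 2396 and 2246 in the PH70 libraries. The PH80_G+H libraries were below every PH80_HC and PH80 library. PH80_G+H replicates 1 and 2 were also below every PH70 library, and replicate 3 lay inside the PH70 range. Npm1 has processed copies elsewhere in the genome, among which reads could have been split.

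**Figure D3:**
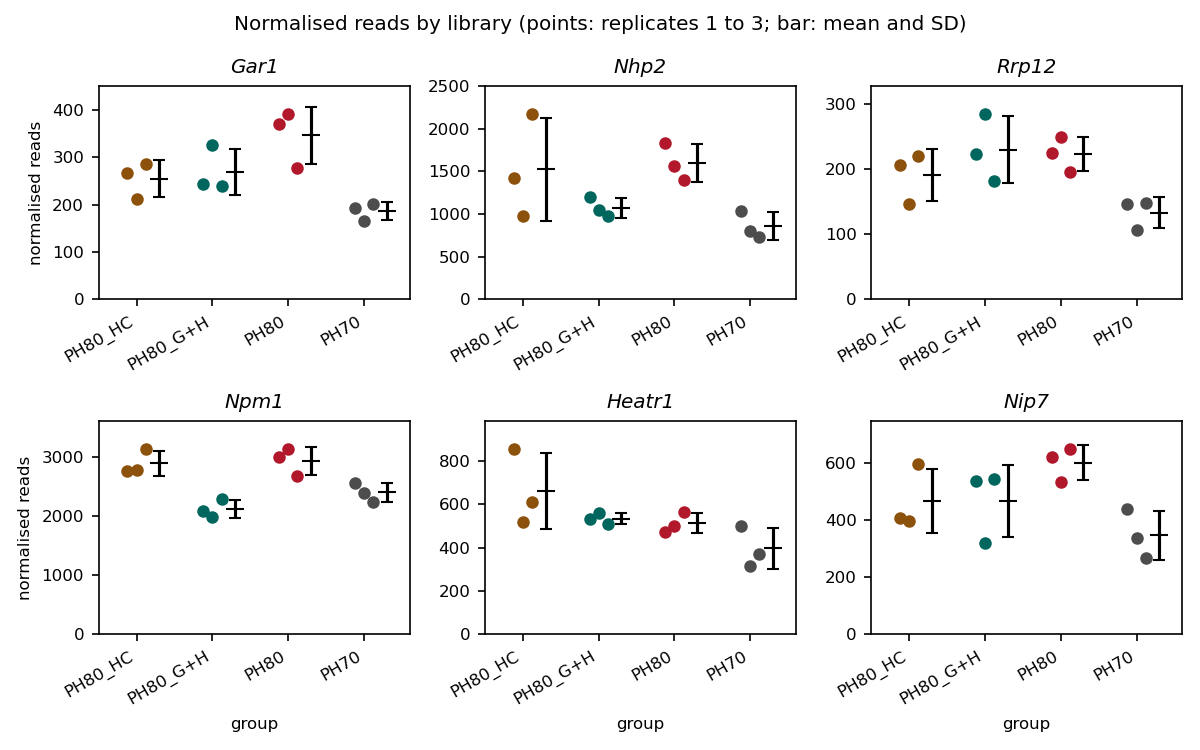
Normalised reads of Gar1, Nhp2, Rrp12, Npm1, Heatr1 and Nip7 in each library (points, replicates 1 to 3 from left to right) with the group mean and SD (bars), on axes that start at 0. PH70 has the lowest group mean in 5 of the panels, and PH80_G+H in the Npm1 panel.

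PH80_HC was compared with PH80 to ask what the HC arm changed at the same resection. No member was called by limma, where 0.652% of all genes were called higher and 0.239% lower, and 0 had an unadjusted p under 0.05 (7.96% of all genes higher, 6.30% lower). EdgeR (0.923% of all genes called) and DESeq2 (4.04%) also called 0 members. The log2 difference was positive in 17 of 42 members (51.5% of all genes) with a median of -0.04, against 0.01 over all genes, but with every library scaled to the same total it was positive in 2 (19% of all genes) with a median of -0.37, against -0.31 over all genes. Libraries were all lower for 2 members, Utp20 and Wdr75 (7.38% of all genes), and all higher for 0 (8.26%). The smallest p belonged to Gar1, at 255.4 ± 39.1 normalised reads in PH80_HC and 346.8 ± 60.6 in PH80 (SD, n = 3 each), a log2 difference of -0.44 with a limma adjusted p of 0.358. Rrp9, Nop58, Heatr1, Nip7 and Ncl followed, at -0.40, -0.36, 0.34, -0.39 and 0.42. Within 2-fold in both directions lay the 95% interval of 41 of 42 members, all but that of Ncl, which reached 1.02.

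PH80_G+H against PH80 asks the same of the other arm. No member was called by limma, where 0.111% of all genes were called higher and 0.00796% lower. EdgeR (0.0875% of all genes called) and DESeq2 (1.61%) called 0 members. By unadjusted p under 0.05, 3 members were lower and 0 higher, against 4.96% of all genes lower and 5.51% higher. The 3 were Npm1, Nhp2 and Nop58. Npm1 averaged 2120 ± 155 normalised reads in PH80_G+H and 2938 ± 241 in PH80 (SD, n = 3 each), a log2 difference of -0.47 (SE 0.154, adjusted p = 0.277 by limma). Nhp2 had a difference of -0.57 (adjusted p = 0.446) and Nop58 one of -0.41 (adjusted p = 0.469), both by limma. Wdr12, Gar1 and Polr1c, a subunit shared with polymerase III, followed at -0.35, -0.36 and -0.29. The difference was positive in 19 of 42 members (6285 of 12570 genes overall) with a median of -0.03, against 0.00 over all genes, and at equal totals it was positive in 14 (37.9% of all genes) with a median of -0.12, against -0.10 over all genes. Libraries were all lower for 6 members (8.11% of all genes) and all higher for 2, Polr1b and Utp15 (8.82%). The 95% interval lay within 2-fold in both directions for 41 of 42 members, all but Nhp2.

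**Figure D4:**
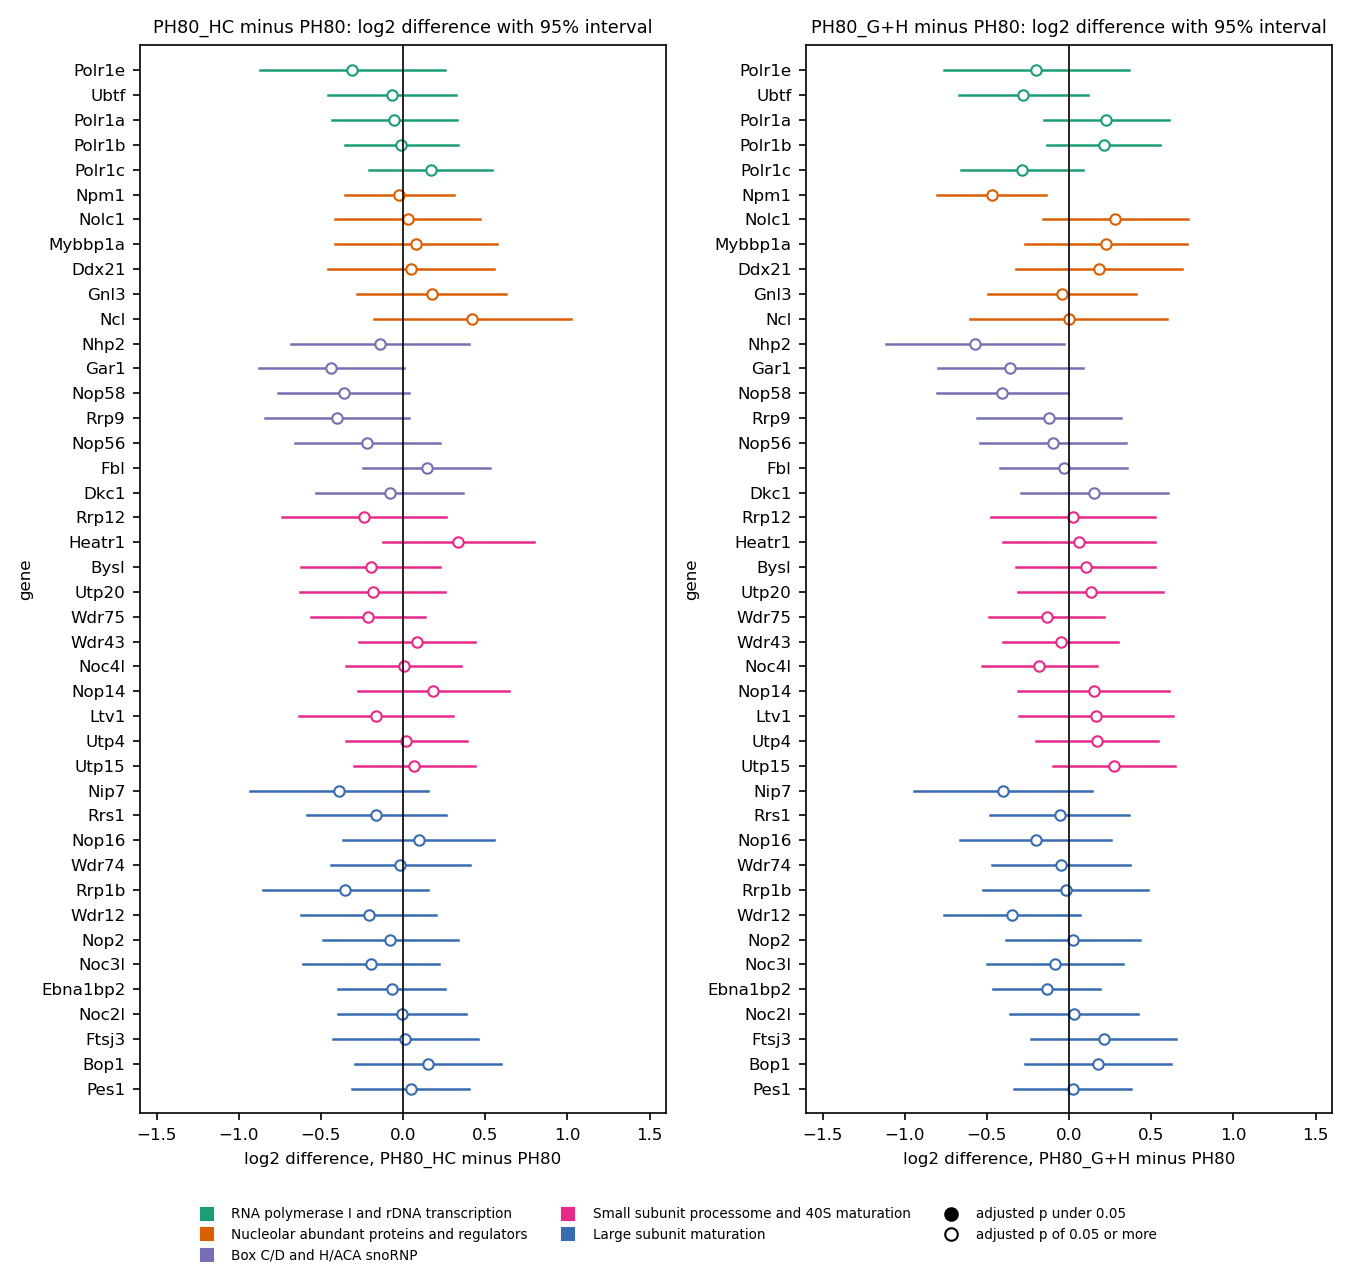
Log2 differences of PH80_HC minus PH80 (left) and PH80_G+H minus PH80 (right) for each member, with 95% intervals, in the same gene order in both panels. All points are open, so no member passed the threshold, and most intervals cross 0; Npm1, Nhp2 and Nop58 in the right panel do not.

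Each treated arm was also set against PH70. These comparisons share the PH70 libraries with each other and with PH80 against PH70, so their values stand side by side and do not support each other. In PH80_HC against PH70, 0 members were called by limma (0.111% of all genes higher, 0.119% lower), by edgeR (0.119% of all genes called) and by DESeq2 (2.01%). At an unadjusted p under 0.05 by limma, 6 were higher and 0 lower (8.55% and 7.23% of all genes). They were Heatr1, at 661.7 ± 176.6 normalised reads in PH80_HC and 396.2 ± 95.9 in PH70 (log2 difference 0.73, adjusted p = 0.192 by limma), then Nhp2 at 0.77, Nop16 at 0.56, Wdr74 at 0.45, Rrp12 at 0.51 and Gar1 at 0.45. Libraries were all higher for 5 members (7.96% of all genes) and all lower for 2, Dkc1 and Utp15 (9.07%). Dkc1 had a difference of -0.41. The difference was positive in 35 of 42 members (50.3% of all genes) with a median of 0.16, against 0.00 over all genes. With every library scaled to the same total it was positive in 15 (31% of all genes) with a median of -0.05, against -0.20 over all genes.

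In PH80_G+H against PH70, 0 members were called by limma (0.00% of all genes higher, 0.00796% lower), by edgeR (0.00796% of all genes called) and by DESeq2 (0.525%). At an unadjusted p under 0.05 by limma, 6 were higher and 0 lower (3.24% and 2.73% of all genes). They were Rrp12, at 229.9 ± 51.8 normalised reads in PH80_G+H and 133.02 ± 23.4 in PH70 (log2 difference 0.78, adjusted p = 0.452 by limma), then the snoRNP chaperone Nolc1 at 0.54, Gar1 at 0.52, Bysl at 0.45, Polr1a at 0.40 and Rrs1 at 0.44. Libraries were all higher for 9 members (5.95% of all genes) and all lower for 0 (7.57%). The difference was positive in 32 of 42 members (48.8% of all genes) with a median of 0.17, against -0.01 over all genes. Without PH80_G+H replicate 2, the library that was highest for 15 members, the median was 0.08 with 28 positive, and without PH80_G+H replicate 3 it was 0.27 with 37 positive.

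Between PH80_HC and PH80_G+H 0 members passed by limma, edgeR or DESeq2. Of all genes, limma called 0.0875% higher and 0.167% lower in PH80_HC, edgeR called 0.374% and DESeq2 2.41%. By unadjusted p under 0.05, 2 members were higher in PH80_HC (7.08% of all genes) and 0 lower (6.52%). Npm1 averaged 2893 ± 207 normalised reads in PH80_HC and 2120 ± 155 in PH80_G+H (log2 difference 0.45, adjusted p = 0.247 by limma, SD over n = 3 each). Polr1c averaged 640.6 ± 83.4 in PH80_HC and 465.6 ± 37.5 in PH80_G+H (log2 difference 0.46, adjusted p = 0.280 by limma). Neither gene overlapped between the arms. Libraries were all higher in PH80_HC for 2 members (8.71% of all genes) and all lower for 3 (8.40%), and the difference was positive in 18 of 42 (51.9%) with a median of -0.08. At equal totals it was positive in 6 (29.5% of all genes) with a median of -0.31, against -0.21 over all genes. Nhp2, Polr1a, Utp20 and Ncl followed at 0.44, -0.28, -0.32 and 0.43. Over the 4 groups at once, 0 of 42 members passed limma's F test, against 1.85% of all genes, with 6 at an unadjusted p under 0.05 (19.1% of all genes), 0 called by edgeR (1.71% of all genes) and 3 by DESeq2 (9.75% of all genes).

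Libraries also differed along transcript length, within groups and between PH80 and PH70. The slope of a library's log2 deviation on log2 transcript length over all genes was steepest in PH80_HC replicate 3 (-0.28), PH80_G+H replicate 2 (0.24), PH80 replicate 1 (-0.19) and PH70 replicate 3 (0.23). In replicates 1 to 3 it was -0.007, 0.11 and 0.23 in PH70 and -0.19, -0.008 and -0.004 in PH80. Only PH70 replicate 1 lay inside the PH80 range. Gar1, Nhp2, Wdr74 and Fbl have transcripts of 1271, 1042, 1204 and 1197 bases, short for this list, whose median is 2932. With the trend on length and GC content removed, Gar1 had a log2 difference of PH80 from PH70 of 0.61 (adjusted p = 0.118 by limma) and Nhp2 one of 0.56, against 0.91 on the deposited scale. Rrp12, whose transcript has 4340 bases, passed at 0.83 (adjusted p = 0.0287). The members' median in that comparison was then 0.25, with 33 of 42 positive. Leaving out the 4 steepest libraries together gave a median of 0.23 with 35 positive and no member called, where 2.44% of all genes were called (Gar1 at 0.88, adjusted p = 0.0882 by limma). In the same setting the medians against PH70 were 0.07 for PH80_HC and 0.04 for PH80_G+H, and those against PH80 were -0.11 for PH80_HC and -0.13 for PH80_G+H, with 8 members positive in each.

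Cytosolic ribosomal protein genes encode the proteins that these factors assemble with the ribosomal RNA. All 56 tested were higher on average in PH80 than in PH70, with a median log2 difference of 0.95. At an unadjusted p under 0.05 by limma 35 were higher (10.2% of all genes), and limma called 0 (1.09% of all genes higher). They deviated by 1.13 in PH80_HC replicate 3 (slope -0.28), by -0.86 in PH80_G+H replicate 2 (0.24) and by -1.06 in PH70 replicate 3 (0.23). In PH70 replicate 2 the deviation was -0.62 (slope 0.11). In PH80 replicates 1 and 2 it was 0.48 and 0.45 (slopes -0.19 and -0.01). The part of transcript length in their difference was not tested.

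**Figure D5:**
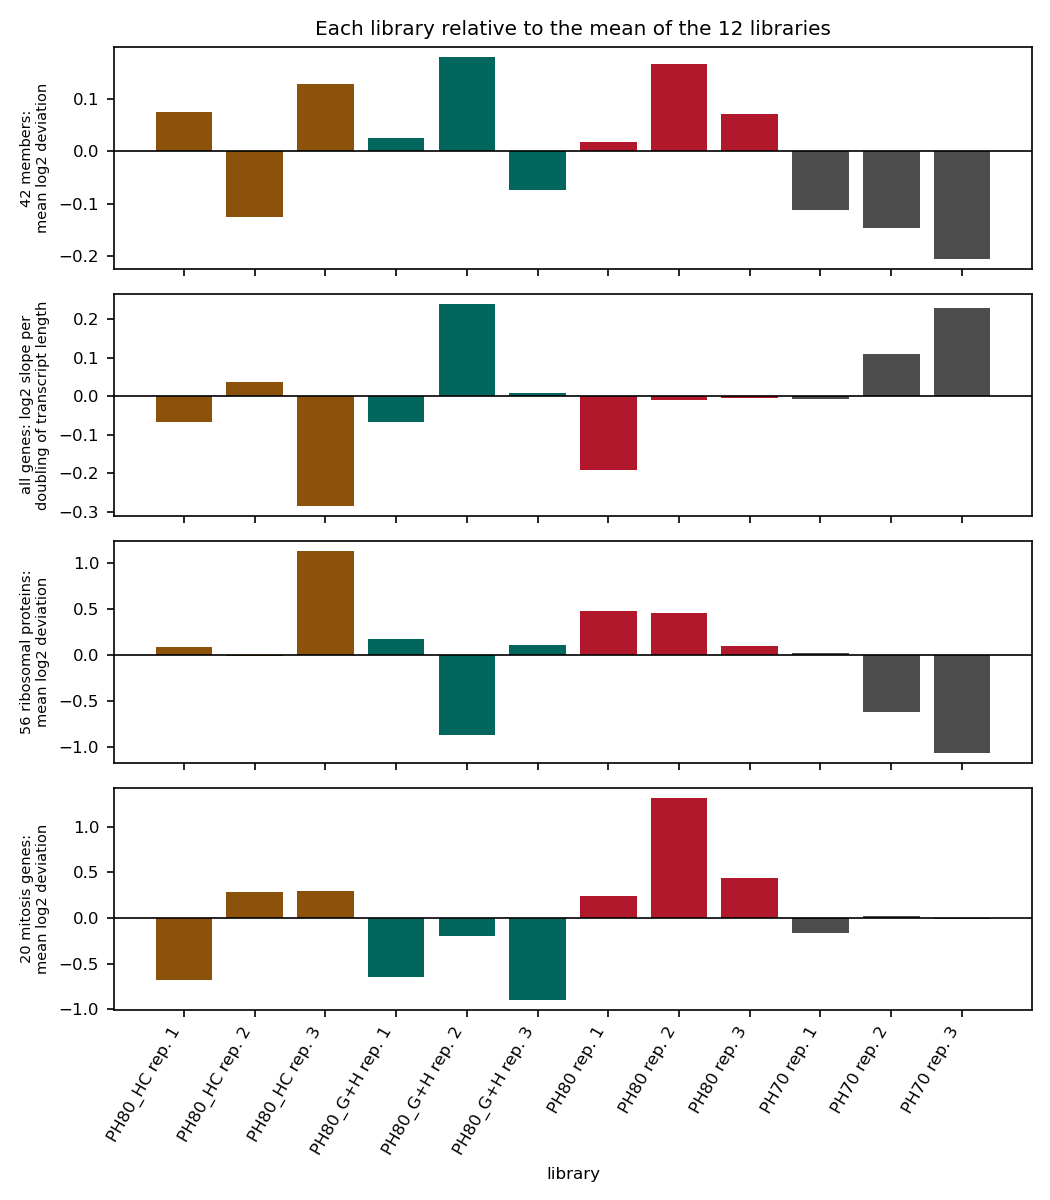
Bars from 0 for each library: mean log2 deviation of the 42 members, slope of all genes' log2 deviation per doubling of transcript length, mean log2 deviation of 56 ribosomal protein genes and mean log2 deviation of 20 mitosis genes. On the deposited scale the members are below 0 in all PH70 libraries, the ribosomal proteins are highest in PH80_HC replicate 3 and lowest in PH70 replicate 3, and the mitosis genes peak in PH80 replicate 2.

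The rest of the machinery, from lists of further genes of each step, gave few limma calls in PH80 against PH70. Of all genes limma called 1.09% higher, and 10.2% were higher at an unadjusted p under 0.05. Of 48 other small subunit factors 1 was higher, Nol10, at 219.3 ± 0.539 normalised reads in PH80 and 140.3 ± 11.4 in PH70 (SD, n = 3 each; adjusted p = 0.0496 by limma), and 34 were positive with a median of 0.11. Of 23 exosome and nuclease genes 1 was higher, Pop7, a subunit of RNase P and RNase MRP, at 317.3 ± 69.9 in PH80 and 141.97 ± 36.9 in PH70 (adjusted p = 0.0227 by limma). In that list 15 were positive with a median of 0.31, and 7 were higher and 1 lower at an unadjusted p under 0.05. None was called among 46 other large subunit factors (median 0.13, 10 higher at an unadjusted p under 0.05), 13 other snoRNP genes (median 0.36, 2 higher), 12 other polymerase I genes (median 0.56, 4 higher) and 21 polymerase III genes (median -0.01, 1 higher). Rrn3, which brings polymerase I to its promoter, averaged 407.3 ± 60.3 in PH80 and 438.3 ± 68.6 in PH70 (log2 difference -0.10).

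Myc itself did not pass the test. It averaged 208.3 ± 99.3 normalised reads in PH80 and 238.1 ± 105.7 in PH70 (SD, n = 3 each; log2 difference -0.21, adjusted p = 0.793 by limma), with an interval from -1.08 to 0.66, and Mycn averaged 15.7 ± 10.6 in PH80 and 16.5 ± 4.46 in PH70. Among 25 MYC targets outside the nucleolus, limma called 2 higher and 1 lower in PH80 than in PH70 (1.09% and 2.73% of all genes). Odc1 and Srm, enzymes of polyamine synthesis, rose to 2201 ± 84.5 and 1281 ± 25.9 in PH80, against 1120 ± 135 and 629.7 ± 110.1 in PH70 (adjusted p = 0.0229 and 0.0204 by limma). Mthfd1, a folate enzyme, fell to 2281 ± 181 in PH80, against 4156 ± 285 in PH70 (adjusted p = 0.0217 by limma). In PH80_HC Odc1 was lower, at 1021 ± 255 against 2201 ± 84.5 in PH80 (adjusted p = 0.0257 by limma).

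Proliferation genes and markers of other cells also differed between these libraries. Cdk1, the mitotic kinase, averaged 2486 ± 699 in PH80 and 1068 ± 92.7 in PH70 (adjusted p = 0.0305 by limma), and all 20 mitosis genes had positive differences, with a median of 0.64. Mki67 averaged 1948 ± 1016 in PH80 and 1211 ± 47.2 in PH70 (adjusted p = 0.329 by limma). In PH80_G+H against PH80 all 20 mitosis genes were negative, with a median of -1.23, while the members' median there was -0.03. At an unadjusted p under 0.05 by limma 20 were lower (4.96% of all genes). Limma called 0 (0.00796% of all genes lower), edgeR 0 (0.00796%) and DESeq2 13 (0.827%). The summed normalised reads of 10 neutrophil markers ranged from 12357 to 90859 in PH80 and from 2803 to 10621 in PH70, with Ngp, Ltf and Camp at 0 in at least 1 library. Taken singly, all 10 had a positive log2 difference, but libraries were all higher for only 1 (12.8% of all genes). Limma called 0 (1.09% of all genes higher). The sums of 10 hepatocyte markers ranged from 2013690 to 2467390 in PH80 and from 3057120 to 3319760 in PH70. Most of each sum was albumin (Alb), at 1484320 to 1857740 in PH80 and 2316490 to 2582340 in PH70. Of the 10 markers 9 had a negative log2 difference, with a median of -0.25. Libraries were all lower for 2 (14.2% of all genes), and limma called 1 lower, Cyp2e1 (2.73% of all genes). The part of these shifts in the members' differences was not tested.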

How the data were processed

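RNA-seq of 12 liver libraries, 3 in each of 4 groups assigned from the labels, was analysed. A stranded mRNA kit that selects polyadenylated RNA was used, per the labels' protocols. Per the submitters' processing notes, DESeq2 was applied and the build was GRCm38 (mm10). For the aligner, the counting tool and the strand setting the sources used here give no name. The deposited values are a normalised signal per gene, that is, counts of reads over the library's size factor: in each library 100% of them came out as whole reads within 0.01.

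Values were tested as log2(value + 1) in genes with at least 10 in at least 3 libraries, with limma 3.58.1 (R 4.3.3) on all 12 libraries, an intensity trend, two-sided tests and Benjamini-Hochberg adjustment over 12570 genes (threshold 0.05). Folds on this scale understate changes of low genes. The fit was tested on simulated data. EdgeR 4.0.16 and DESeq2 1.42.0 on the recovered reads were alternatives and called 368 and 952 genes in PH80 against PH70, where limma called 480. Other alternatives were 2 pseudocounts, 2 filters, no intensity trend, TMM factors, equal totals, removal of a length and GC trend, a replicate block, the compared groups alone and leaving out libraries. Within groups, library pairs differed by a chi-square of 28.1 to 369 per degree of freedom, far above sampling noise. The table's lowest mean is 1.01, so genes below that are not analysed here. Coordinates come from GENCODE M21 on GRCm38, in which 13513 of 13554 symbols match 1 gene, and lengths and GC from 1 transcript per gene.

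The members and lists were chosen with earlier results of these data known. All 42 members may be named. Values in every library are given for members past the threshold in PH80 against PH70 or a treated arm against PH80, filled to 6 by the smallest F test p. Statistics are given for called members or, with fewer than 6, the 6 with the smallest p. Of other lists up to 4 called genes are named, and Myc, Mycn, Rrn3 and Mki67 in every case. Some members overlap a protein-coding gene on the opposite strand when whole genes are compared, introns included (Polr1e, Gnl3, Mybbp1a, Nop56, Rrp9, Dkc1, Nhp2, Heatr1, Bysl, Bop1, Pes1, Wdr12, Rrp1b and Noc2l). Their reads may be shared if strand was not used and the overlap covers exons, which was not checked.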

Additional observations from a re-analysis of the deposited data

How the results depend on the processing

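The count of members called in PH80 against PH70 was 1, and it was 2 with DESeq2 (2.78% of all genes called higher, 4.79% lower), 2 with every library scaled to the same total (0.961% and 0.858%) and 2 with the compared groups alone (1.29% and 2.34%), each time Gar1 and Nhp2, both higher. It was 0 with the replicate block (2.33% of all genes called). It was also 0 without PH70 replicate 3, PH80 replicate 1, PH80_HC replicate 3 and PH80_G+H replicate 2 together (2.44%). Leaving out 1 library at a time gave 0 to 2, while the share of all genes called ranged from 0.487% to 5.8%. With the length and GC trend removed it stayed 1 with another gene, Rrp12 in place of Gar1 (5.46% of all genes). That held also with the block (4.12%, adjusted p of Rrp12 0.0484 by limma). In the F test DESeq2 called 3 members (9.75% of all genes) where limma called 0 (1.85%). In the other 5 comparisons no alternative called a member. The alternatives called between 0% and 4.04% of all genes there, the highest share with DESeq2 in PH80_HC against PH80. At shares this low, a list of this size can hold no call without differing from other genes. The cause of the changes in the count for PH80 against PH70 and in the F test was not tested, except that dropping a library leaves fewer samples.

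The replicate numbers gave no clear sign of pairing. Of 18 same-numbered pairs 6 correlated above 0.1 (range -0.37 to 0.37), and 1 of 12 libraries correlated best with its own number. These correlations cannot exclude pairing, because differences over all genes such as the length slope also enter them. With the number as a block Gar1 had an adjusted p of 0.0618 by limma. Over the alternatives its adjusted p ranged from 0.00411 to 0.152.

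Equal totals moved the median log2 difference over all genes to 0.13 in PH80 against PH70, -0.31 in PH80_HC against PH80, -0.20 in PH80_HC against PH70 and -0.21 in PH80_HC against PH80_G+H. The members' medians were then 0.30, -0.37, -0.05 and -0.31. The medians near 0 changed sign in places: PH80_HC against PH80 was 0.01 without PH80 replicate 2 and 0.03 without PH80_HC replicate 2, and PH80_HC against PH80_G+H was 0.07 without PH80_HC replicate 2 and 0.07 without PH80_G+H replicate 2. PH80_G+H against PH80 was 0.04 without PH80 replicate 2, 0.01 without PH80_G+H replicate 1 and 0.05 without PH80_G+H replicate 3. Each group has 3 libraries, and the median half-width of a member's 95% interval was 0.43 on the log2 scale.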

Other observations

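Within the H/ACA particle the ratios of transcripts were chosen after their values were seen, and they are given with no test. The ratio of Gar1 to Dkc1 normalised reads, not corrected for transcript length, was 1.22, 0.848 and 1.28 in PH80_HC replicates 1 to 3 and 1.10, 0.984 and 0.884 in PH80_G+H. It was 1.77, 1.76 and 0.896 in PH80 and 0.684, 0.457 and 0.703 in PH70. Every library with the larger resection was above every PH70 library. The ratio of Nhp2 to Dkc1 was 6.46, 3.91 and 9.69 in PH80_HC and 5.40, 3.14 and 3.59 in PH80_G+H. It was 8.76, 6.99 and 4.51 in PH80 and 3.66, 2.23 and 2.55 in PH70. Here PH80_HC and PH80 lay above all PH70 libraries, and PH80_G+H overlapped PH70. Gar1 and Nhp2 have shorter transcripts than Dkc1 (1271, 1042 and 2804 bases), and the part of the length slope in these ratios was not tested.

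S phase genes held calls in both directions in PH80 against PH70. Ccne1, cyclin E1, rose to 309.8 ± 75.9 normalised reads in PH80, against 113.8 ± 6.06 in PH70 (SD, n = 3 each; adjusted p = 0.00761 by limma). Mcm10, a replication factor, fell to 397.3 ± 70.1 in PH80, against 1444 ± 639 in PH70 (adjusted p = 0.0138 by limma). Of the 20 genes in that list limma called 1 higher and 1 lower (1.09% and 2.73% of all genes). In all 13 of the 20 were positive, with a median of 0.11.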
